A study of Mus musculus with 6 samples.

Results

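The genes described here are the replication-dependent histone genes, the clustered genes for the linker histone H1 and the core histones H2A, H2B, H3 and H4. They were taken by symbol, and whether each single gene is tied to S phase was not tested. Their names were matched to the deposited transcripts, and 69 clustered histone genes were found. Of these, 42 reached 1 TPM (a transcript level per unit of length, scaled to one total in each library) in at least 3 of the 6 libraries and are the genes counted below. They comprised 3 of 6 H1 genes, 12 of 19 H2A genes, 17 of 19 H2B genes, 4 of 12 H3 genes and 6 of 13 H4 genes. By position, 32 lie in the large cluster on chromosome 13, 7 in the cluster on chromosome 3 and 2 on chromosome 11. The remaining gene, H2af-ps2, is annotated as a pseudogene and lies on chromosome 13 away from the cluster. H4bc24 carries an H4-like symbol but is counted with H2B, because its older symbol is Hist1h2br.

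Replication-dependent histone genes supply the protein that packages newly copied DNA, and they are transcribed mainly in S phase. Their messenger RNAs usually end not in a poly(A) tail but just past a short stem-loop, which is bound by the stem-loop binding protein Slbp and cut with the help of the U7 particle. Cells that leave the cell cycle can also make polyadenylated forms of some of these genes, and the histone variants, which are used outside S phase, come from separate genes with ordinary poly(A) tails.

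The samples were primary myoblasts, the muscle precursor cells, cultured from the skeletal muscle of male mice aged 1 month. One group of 3 libraries came from SfpqSM-KO mice, which lack the nuclear RNA-binding protein Sfpq in skeletal muscle, and the other 3 came from control mice. All cultures were grown in F-10 supplemented with fetal bovine serum (20%) and bFGF, a fibroblast growth factor (2.5 ng/mL), and were then held for 4 days in 2% horse serum, in which myoblasts stop dividing and fuse. Polyadenylated RNA was sequenced. Histone messages without a poly(A) tail are selected against, so the TPM values below are not the total level of histone message and need not follow it. Not given in the sources used here: the promoter that drives the deletion, the deleted exons, the strain and the genotype of the control mice. The labels do not say that the 3 libraries of a group came from 3 mice, and p-values therefore cover only the spread of these libraries, which may be technical.

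Sfpq itself stood at 18.3, 19.3 and 14.1 TPM in the knockout libraries and at 48.6, 60.5 and 49.9 TPM in the control libraries. The groups were apart, with a difference in log2(TPM + 1) of −1.57 (SE 0.15, limma with Benjamini-Hochberg adjustment, adjusted p = 0.0531), so some Sfpq RNA remained in each knockout library. Each library held 12216 to 12484 genes at 1 TPM or more, and 12461 genes were tested. TPM values do not show read depth, which is therefore unknown. The 6 muscle markers summed to 52700 to 54170 TPM in knockout and 46090 to 47710 TPM in control; 4 had higher values in knockout, Acta1 and Des with the groups apart, and Ckm and Tnnt3 had lower values. Fibroblast markers summed to 153 to 214 TPM in knockout and 196 to 288 TPM in control; 2 of the 4 were tested and both had lower values in knockout, Col1a1 with the groups apart. The part of the muscle and fibroblast markers in the results below was not tested. Summed endothelial, leukocyte, adipocyte and Schwann cell markers did not exceed 1.46 TPM in any library, and 2 of the 4 leukocyte markers, Ptprc and Adgre1, were at 0 throughout.

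The stem-loop that ends a replication-dependent histone message was looked for in the first 150 bases after the stop codon of GENCODE models on GRCm38, as 16 bases with at most 2 mismatches to either of the 2 commonest perfect stem-loops of the histone genes themselves, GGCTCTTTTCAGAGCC and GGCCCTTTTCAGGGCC. The following sequences, 5′ to 3′ on the gene's strand with the stem-loop in capitals, come from 1 or 2 of the 3 most abundant genes of each class; in H2B the most abundant gene, H2bc4, had no match, and H2bc8 is shown.
H1f2: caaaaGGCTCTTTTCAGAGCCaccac
H2ac18: aaaaaGGCTCTTTTCAGAGCCaccca
H2bc8: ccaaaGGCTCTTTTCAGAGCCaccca
H3c14: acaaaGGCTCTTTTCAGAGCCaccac
H4c8: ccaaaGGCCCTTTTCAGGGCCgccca
H4c9: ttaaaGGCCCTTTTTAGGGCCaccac
The capitals lie at chr13:23739512-23739527 (plus strand) in H1f2, chr3:96246032-96246047 (plus) in H2ac18, chr13:23571843-23571858 (plus) in H2bc8, chr3:96247327-96247342 (plus) in H3c14, chr13:23531458-23531473 (plus) in H4c8 and chr13:22040966-22040981 (minus) in H4c9, in the annotated untranslated region. A stem-loop was found in 31 of the 37 genes whose longest model has at least 16 bases after the stop codon, which is 83.8%. Over other protein-coding genes with at least 150 bases after the stop, 4 of 18956 (0.0211%) held one. With that same minimum, 15 of 20 of the histone genes counted here (75.0%) held one. The forms searched for were taken from the histone genes, so a high share among them was partly built in. Counting any model, 32 of the 42 genes had a stem-loop.

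The form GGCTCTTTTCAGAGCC occurred in 23 genes of classes H1, H2A, H2B and H3, and the form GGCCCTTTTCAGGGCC in 4 genes, each an H4 gene. Most of the RefSeq genes ended at the stem-loop: 30 of the 32 ended no more than 10 bases past it. GENCODE models of 15 of the genes ran more than 100 bases past the stem-loop, for H1f2 by 840 bases and for H2bc8 by 155 bases. If reads were counted within such RefSeq models, TPM leaves out reads that lie wholly past the stem-loop; the annotation used is not stated. H2bc4, the most abundant core histone gene, and H2bc21 had no match within 150 bases of the stop codon in models that continue for 742 and 2192 bases. Genes with a stem-loop found had a median difference of 0.23 in log2(TPM + 1). No match was found in 4 genes with at least 150 bases after the stop: H2bc4, H2bc21 and the near copies H2bc23 and H4bc24. Their median was 0.38, with a range of −0.03 to 0.61. H2bc4 spans 8282 bases with a model of 1156, and H2bc23 and H4bc24 span 3788 with models of 1254 and 1256. A stem-loop in sequence that the model leaves out would be missed. In H2bc22 a model of 469 bases held the stem-loop and another of 621 bases did not. Whether H2bc4, H2bc23 and H4bc24 lack a stem-loop was therefore not settled. The model of H3c13 has 37 bases after the stop, too few to reach the place of the stem-loop in H3c14, which begins at base 31, so it says nothing about H3c13.

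Promoters of 39 of the 42 genes are in the RefSeq table for GRCm38.p6, as windows of 250 bases before and 50 bases after the start. H2bc4 has no entry. Those of H1f2 and H2ac18 are shown as the promoters of the most abundant H1 and H2A genes, and that of H2bc8, which made up 14.4% of H2B TPM, because it shares its promoter region with an H2A gene. Capitals mark the CCAAT box (or its reverse complement), the TATAAA element and the octamer ATTTGCAT, searched on both strands; none of the 3 motifs overlaps another.
H2bc8: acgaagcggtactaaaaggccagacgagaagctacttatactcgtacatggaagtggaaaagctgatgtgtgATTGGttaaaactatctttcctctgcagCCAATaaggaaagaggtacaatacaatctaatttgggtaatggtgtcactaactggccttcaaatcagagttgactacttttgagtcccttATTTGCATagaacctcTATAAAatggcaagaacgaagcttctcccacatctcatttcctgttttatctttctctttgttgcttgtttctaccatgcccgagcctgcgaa
H2ac18: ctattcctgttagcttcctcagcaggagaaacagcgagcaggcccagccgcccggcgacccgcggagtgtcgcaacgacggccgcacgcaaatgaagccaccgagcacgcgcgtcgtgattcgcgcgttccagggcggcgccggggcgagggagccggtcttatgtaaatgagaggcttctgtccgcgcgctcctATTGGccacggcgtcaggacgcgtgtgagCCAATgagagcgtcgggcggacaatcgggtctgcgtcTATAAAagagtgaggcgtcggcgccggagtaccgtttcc
H1f2: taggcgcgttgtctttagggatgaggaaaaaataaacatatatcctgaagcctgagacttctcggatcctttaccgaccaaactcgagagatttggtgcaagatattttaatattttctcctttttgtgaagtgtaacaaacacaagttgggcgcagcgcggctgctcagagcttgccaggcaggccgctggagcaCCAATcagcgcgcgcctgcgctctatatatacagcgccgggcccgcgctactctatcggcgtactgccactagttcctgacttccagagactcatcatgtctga
The windows are chr13:23571150-23571449, chr3:96245247-96245546 and chr13:23738557-23738856, all on the plus strand. CCAAT was present in 34 of the 39 promoters (87.2%), against 37.4% of all 32851 promoters in the table. The 5 without it were all H4 genes, of which 1 of 6 held the motif. TATAAA was present in 20 of 39 (51.3%, against 13.6%). The octamer, known from H2B promoters, was present in 9 of 39 (23.1%, against 1.74%), namely in 5 of 15 H2B and 4 of 11 H2A promoters and in none of the other classes. Some of the 39 windows overlap. H2bc23 and H2ac23, H4bc24 and H2ac24, H2bc11 and H2ac11, and H2bc7 and H2ac7 lie head to head, with starts 168 to 268 bases apart. A motif between such starts can count for both genes, and how many of the matches do so was not worked out. The H2A and H2B counts are thus not separate. A match is a string of letters and not evidence that a factor binds there.

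Most core histone genes, 37 of 39, had higher values in the Sfpq knockout libraries, and no single gene passed the test. The 2 core genes with lower values were H2ac10 and H2bc21, and the 3 H1 genes were within 0.04 of 0 on the log2(TPM + 1) scale, with signs that depended on the scaling. Values were higher in knockout for 37 of the 42 genes (88.1%), against 35.5% of all genes tested. Summed over the 42 genes, the level was 656, 645 and 795 TPM in knockout libraries 1, 2 and 3 and 519, 586.5 and 591 TPM in control libraries 1, 2 and 3. Every knockout library was above every control library, with means of 698 ± 83.5 and 565 ± 40.3 TPM (SD, n = 3) and a ratio of 1.24. These sums were 0.0519% to 0.0795% of a library's TPM. In such bulk samples, more cells that hold a message and more of it per cell cannot be told apart.

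By limma with Benjamini-Hochberg adjustment over all 12461 genes, 0 of the 42 genes passed an adjusted p of 0.05 in either direction, against 0.0% of all genes, and the smallest adjusted p among the 42 was 0.258. At an unadjusted p under 0.05, 12 of the 42 (28.6%) were higher, against 2.68% of all genes, and 0 were lower, against 9.62%. In 10 of the 42 (23.8%) every knockout library was above every control library, against 4.27% of all genes, and in 0 was every one below, against 15.3%. The median difference in log2(TPM + 1) was 0.24, with a range of −0.16 to 0.69, and −0.07 over all genes tested. H4c17 and H4c18 reached 1 TPM in the 3 knockout libraries and in no control library, so they were bound to differ. Without both, 10 of 40 genes were higher at an unadjusted p under 0.05, 8 of 40 did not overlap between groups and the median was 0.23. Both counts still include H4c3, which reached 1 TPM in 3 knockout libraries and 1 control library. Many of the genes share sequence, as described below, so they do not vary independently of each other.

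Single libraries moved these counts. Control library 2 was the highest control for 30 of the 39 core histone genes, and knockout library 3 was the highest knockout for 22 of 39. Without control library 2, 27 of 42 genes were apart and higher, against 12.3% of all genes. Without knockout library 2, 17 of 42 were, against 8.69%. The count at an unadjusted p under 0.05 was 4 of 42 without knockout library 3, without control library 1 or without control library 3. It was 7 without knockout library 1, 9 without knockout library 2 and 17 without control library 2. For these settings the share of all genes at that threshold was not worked out, so whether all genes moved alike is not known. Rescaling each library by the median of ratios gave 23 genes apart and higher (9.33% of all genes), and quantile normalization gave 24 (8.71%).

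**Figure D1:**
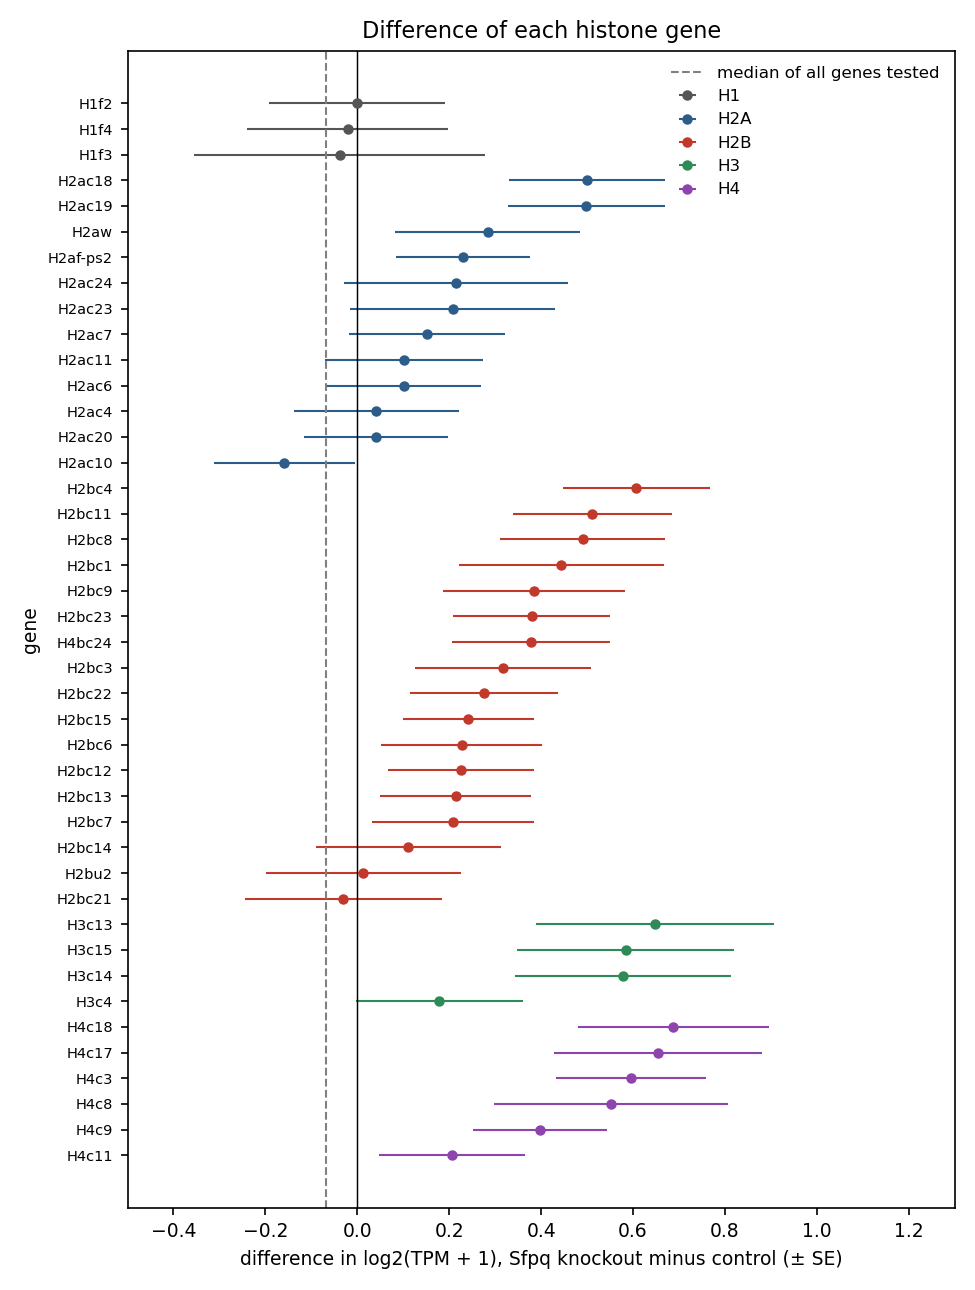
Difference in log2(TPM + 1) between the Sfpq knockout and control libraries for each of the 42 histone genes (points, limma estimate; bars, SE; n = 3 per group), coloured by histone class. The dashed line is the median of all genes tested, −0.07; the 3 H1 genes sit near 0, and the H3 and H4 genes lie between 0.18 and 0.69.

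Linker histones bind the DNA between nucleosomes and compact the fibre. The values of all 3 H1 genes overlapped between groups, and whether H1 and core genes differ in their response was not tested. H1f2 was the most abundant of the 42 genes and made up 93.2% of H1 TPM (91.8% to 94.1% over libraries). It stood at 179, 239 and 276 TPM in knockout and at 219, 197 and 275 TPM in control. The lowest and highest of the 6 libraries were both knockout libraries, and the groups overlapped throughout. The difference was −0.0011 in log2(TPM + 1) (SE 0.19, limma adjusted p = 0.999); with median-of-ratios or quantile scaling it was 0.07 or 0.02.

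H1f4 stood at 9.10, 14.3 and 11.4 TPM in knockout and at 9.66, 10.4 and 15.5 TPM in control. H1f3 stood at 4.41, 4.27 and 6.53 TPM in knockout and at 4.13, 3.54 and 8.99 TPM in control. Control library 3 was the highest for both genes and also the highest control for H1f2. Their differences were −0.02 and −0.04, and both turned to above 0 with median-of-ratios scaling (0.05 and 0.02) and with quantile scaling (0.08 and 0.05). Summed H1 TPM was 248 ± 51.4 in knockout and 248 ± 46.4 in control (SD, n = 3). In the GENCODE models, 23.8% of the 50-base stretches of H1f4 also occur in H2bc6, its neighbour. That H1f4 model runs 1153 bases past its stem-loop. The RefSeq genes do not overlap (H1f4 at chr13:23621777-23622558, H2bc6 at chr13:23583670-23621124). Whether the sharing affects the TPM of this pair was not tested.

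H2A and H2B form the dimers on the outside of the nucleosome. Among the 12 H2A genes 11 had higher values, with a median difference of 0.18, and 2 (H2ac18 and H2ac19, near copies) were higher at an unadjusted p under 0.05, against 2.68% of all genes. None of the 12 was apart and higher, against 4.27%. H2ac18, a gene of the chromosome 3 cluster (chr3:96245497-96246052), stood at 39.6, 27.7 and 33.6 TPM in knockout and at 22.4, 28.0 and 20.1 TPM in control. Knockout library 2 lay just under control library 2, and every other knockout library was above every control library. The difference was 0.50 (SE 0.17, limma adjusted p = 0.336).

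H2ac19, which encodes H2A in the same cluster, stood at 37.0, 25.8 and 31.3 TPM in knockout and at 20.9, 26.1 and 18.7 TPM in control, and the same libraries overlapped. All of the 50-base stretches of H2ac19 occur in H2ac18, and the ratio of H2ac18 to H2ac19 was 1.07 in each of the 6 libraries. The values of the pair are therefore not separate measurements. Together they made up 60.5% of H2A TPM, and 86.2% with H2aw.

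H2aw, the H2A gene on chromosome 11, stood at 27.6, 24.5 and 23.6 TPM in knockout and at 16.2, 28.5 and 18.6 TPM in control. Its highest library was control library 2, and the groups overlapped (difference 0.28, SE 0.20, limma adjusted p = 0.596). H2ac10 was the H2A gene with a lower value, at 0.80, 0.89 and 1.13 TPM in knockout and 0.96, 1.45 and 1.11 TPM in control. Its groups overlapped (difference −0.16, SE 0.15, limma adjusted p = 0.699). Summed H2A TPM was 103 ± 10.8 in knockout and 77.8 ± 14.1 in control (SD, n = 3), a ratio of 1.33, with overlap between knockout library 2 and control library 2.

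H2B was the most abundant core class, and 16 of its 17 genes had higher values, with a median difference of 0.28. At an unadjusted p under 0.05, 3 of 17 were higher (17.6%, against 2.68% of all genes), and 6 of 17 were apart and higher (35.3%, against 4.27%). H2bc4 (chr13:23684199-23692480) stood at 179, 136 and 188 TPM in knockout and at 99.4, 129 and 99.9 TPM in control. Knockout library 2 and control library 2 lay closest together, and the groups were apart. The difference was 0.61 (SE 0.16), and it had the smallest p of the 42 genes (unadjusted 0.0073, limma adjusted p = 0.258), with adjusted p from 0.165 to 0.607 over the alternatives run.

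H2bc4 made up 53.9% of H2B TPM (51.0% to 59.9%), and together with H1f2 it made up 58.6% of the TPM of the 42 genes. The ratio of H1f2 to H2bc4 was 1.00, 1.76 and 1.47 in knockout and 2.21, 1.53 and 2.75 in control, so it overlapped between groups. Without H2bc4, summed core histone TPM was 284, 252 and 313 in knockout and 187, 247 and 191 in control, still apart, with a ratio of 1.36. With it the ratio was 1.42.

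H2bc8, the next most abundant H2B gene, stood at 41.1, 35.5 and 53.6 TPM in knockout and at 26.8, 36.1 and 28.3 TPM in control. Knockout library 2 fell inside the control range (difference 0.49, SE 0.18, limma adjusted p = 0.361). H2bc9 stood at 11.4, 9.93 and 16.7 TPM in knockout and at 8.32, 10.7 and 8.88 TPM in control, with the same overlap (difference 0.38, SE 0.20, limma adjusted p = 0.479). Sequence is shared here too: 45.0% of the 50-base stretches of H2bc8 occur in H2bc4, whose ratio to H2bc8 was 3.50 to 4.36 over the libraries.

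H2bc11 stood at 5.81, 6.17 and 9.25 TPM in knockout and at 4.60, 4.67 and 4.45 TPM in control. The control libraries lay close together, all below the knockout libraries, of which library 3 was the highest (difference 0.51, SE 0.17, limma adjusted p = 0.335). Library 3 was the highest knockout library for 15 of the 17 H2B genes. H2bc21, on chromosome 3, was the H2B gene with a lower value, at 5.36, 9.06 and 5.97 TPM in knockout and 8.51, 6.40 and 5.76 TPM in control.

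The groups overlapped fully for H2bc21, and its difference of −0.03 (SE 0.21, limma adjusted p = 0.964) turned to 0.03 and 0.07 with median-of-ratios and quantile scaling. It was also the only one of the 42 genes with no 50-base stretch in common with another histone gene. Summed H2B TPM was 299, 252 and 351 in knockout and 190.5, 243 and 196 in control. The groups were apart, with a ratio of 1.43.

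**Figure D2:**
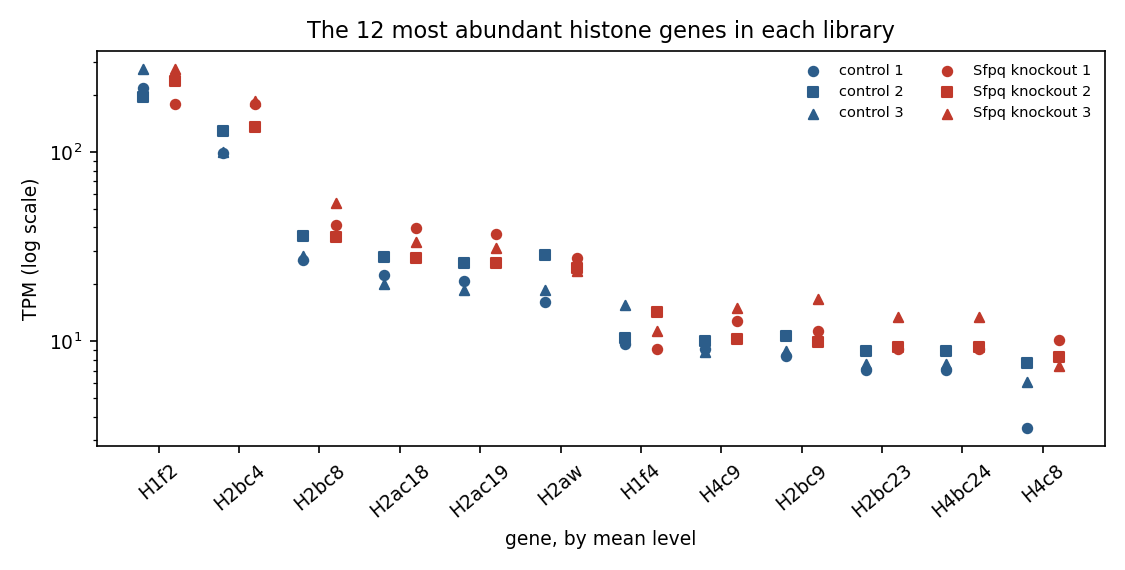
TPM (log axis) of the 12 histone genes with the highest mean level in each of the 6 libraries, with a symbol for each replicate number and a colour for each group. H1f2 overlaps between groups, and the 3 knockout values of H2bc4 (136 to 188 TPM) lie above the 3 control values (99.4 to 129 TPM).

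H3 and H4 form the tetramer at the centre of the nucleosome. The 4 H3 genes all had higher values, with a median difference of 0.58, and 3 were higher at an unadjusted p under 0.05, against 2.68% of all genes, but 0 were apart, against 4.27%. Of these 3, H3c14 and H3c15 are near copies. H3c15 stood at 7.85, 6.70 and 6.16 TPM in knockout and at 3.32, 6.59 and 3.42 TPM in control. Control library 2 lay among the knockout libraries, at about the level of knockout library 2. The difference was 0.58 (SE 0.24, limma adjusted p = 0.391).

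H3c14, a neighbour of H2ac18, stood at 7.67, 6.58 and 6.02 TPM in knockout and at 3.25, 6.44 and 3.38 TPM in control, and its ratio to H3c15 was 0.98 to 0.99 over the libraries. H3c13 stood at 4.63, 3.29 and 3.52 TPM in knockout and at 1.21, 3.32 and 1.98 TPM in control (difference 0.65, SE 0.26, limma adjusted p = 0.387). Control library 2 again overlapped the knockout libraries. These 3 genes of the chromosome 3 cluster made up 89.6% of H3 TPM. Summed H3 TPM was 19.2 ± 2.11 in knockout and 12.3 ± 4.87 in control (SD, n = 3), a ratio of 1.56.

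The 6 H4 genes all had higher values, with a median difference of 0.57, or 0.47 over the 4 without H4c17 and H4c18. H4c9 stood at 12.7, 10.3 and 15.04 TPM in knockout and at 9.11, 10.01 and 8.82 TPM in control, and made up 49.6% of H4 TPM. Its groups were apart by a small margin, between knockout library 2 and control library 2 (difference 0.40, SE 0.15, limma adjusted p = 0.367). H4c8 stood at 10.2, 8.26 and 7.40 TPM in knockout and at 3.48, 7.70 and 6.09 TPM in control, with control library 2 inside the knockout range (difference 0.55, SE 0.25, limma adjusted p = 0.436).

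H4c3 stood at 1.93, 1.39 and 2.19 TPM in knockout and at 0.68, 0.93 and 1.00 TPM in control. Its groups were apart, with a difference of 0.60 (SE 0.16, limma adjusted p = 0.266). H4c18 stood at 1.14, 2.06 and 1.36 TPM in knockout and at 0.28, 0.86 and 0.56 TPM in control. H4c18 was counted only because of its knockout levels, so its values are a description with no test. On the log2(TPM + 1) scale the difference of a low gene is understated: the ratio of mean TPM was 2.11 for H4c3. Summed H4 TPM was 28.4, 25.1 and 28.4 in knockout and 14.5, 21.4 and 17.9 in control, apart, with a ratio of 1.52. Without H4c17 and H4c18 the sums were 26.2, 20.97 and 25.5 in knockout and 13.98, 19.6 and 16.6 in control, apart, with a ratio of 1.45.

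**Figure D3:**
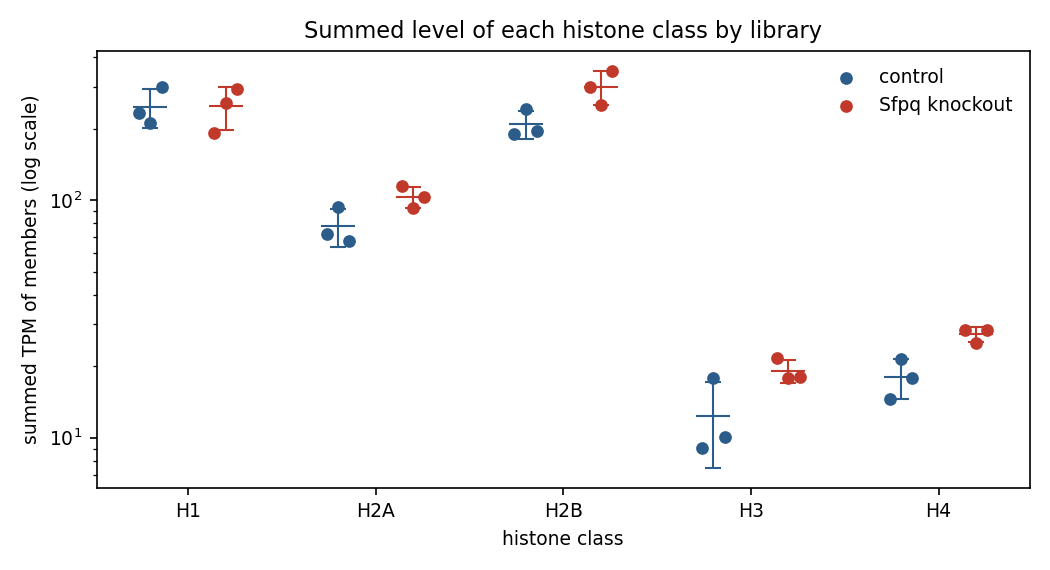
Summed TPM (log axis) of the histone genes of each class in each library (points), with the mean and SD of each group (bars, n = 3). The groups do not overlap for H2B and H4, overlap in 1 control library for H2A and H3, and coincide for H1 (248 TPM in each group).

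Reads of near-identical histone genes cannot be placed with confidence, and the treatment of reads with several matches was not given in the sources used here. Of the 42 genes, 41 shared at least 1 stretch of 50 bases with another histone gene in GENCODE transcripts, and 20 shared more than 50% of their stretches. There were 5 pairs of near copies: H2ac18 with H2ac19, H2ac23 with H2ac24, H2bc23 with H4bc24, H3c14 with H3c15 and H4c17 with H4c18. H2bc23 and H4bc24 had a ratio of 0.999 to 1.005 in the libraries. Summing each pair left 37 genes, with a median difference of 0.23. Of these, 9 were higher at an unadjusted p under 0.05 by limma, where the count without summing was 12 of 42. Among the 22 genes sharing at most 50%, the median was 0.25 and 5 were higher at an unadjusted p under 0.05, against 2.68% of all genes. The share was taken over GENCODE models, which for some genes are longer than the RefSeq gene. H3c14, a near copy of H3c15, is thus among the 22 (34.7% shared) and among the 5. These 22 genes are therefore not free of shared reads. Both of these alternatives were chosen after seeing the data.

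Many H2A and H2B genes lie head to head and are transcribed away from a common promoter region. Among genes with a promoter entry, 10 such pairs were found, with starts 164 to 281 bases apart. The H2B gene had the higher mean TPM in each. H2bc4, which has no entry, also lies head to head with an H2A gene, H2ac6, and their ratio was 69.9 to 174 over the libraries. H2ac20 and H2bc21 lie head to head on chromosome 3 and are likewise not among the 10. H2bc8 stood at 36.9 TPM on average and its partner H2ac8, whose start is 180 bases away, at 0.90 TPM. The ratio was 28.4 to 51.4 over the libraries. In the H2bc8 window printed above, the CCAAT boxes at positions 73 and 101, the octamer at 192 and the TATAAA at 208, counted from 1 at its 5′ end, all lie between these starts. The other pairs of the 10 with both genes above 0.1 TPM had ratios of 3.95 (H2bc7 and H2ac7) to 35.0 (H2bc15 and H2ac15). The H2A genes of chromosome 13 thus stayed low beside their H2B partners in both groups. Most of the H2A level came from the genes on chromosomes 3 and 11 described above.

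**Figure D4:**
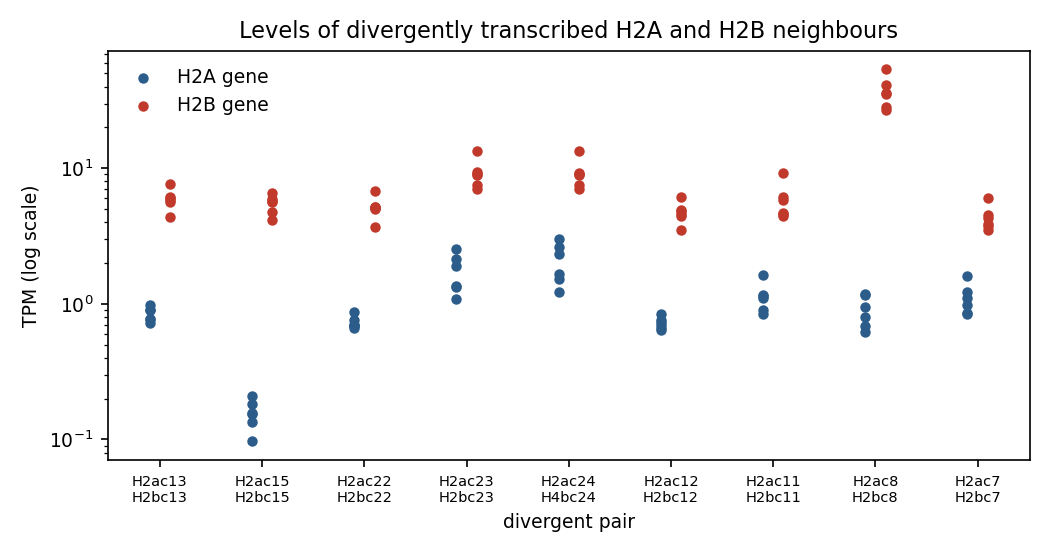
TPM (log axis) in the 6 libraries of the H2A and H2B genes of 9 of the 10 head-to-head pairs found among genes with a promoter entry. The 10th pair is left out because its H2A gene is near 0. The H2B gene is above the H2A gene of its pair in every library, by 28.4 to 51.4 times for H2bc8 over H2ac8.

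By position, the summed level was apart and higher in knockout on chromosomes 13 and 3 and overlapped on chromosome 11. Summed TPM on chromosome 13 was 522, 537 and 681 in knockout and 440.2, 478 and 515 in control, and the ratio was 1.21. Without the H1 genes the chromosome 13 ratio was 1.44, and both sums were apart between groups. Summed TPM on chromosome 3 was 103, 80.3 and 88.1 in knockout and 60.5, 78.0 and 54.8 in control, apart, with a ratio of 1.41. On chromosome 3, 5 of 7 genes were higher at an unadjusted p under 0.05 (2.68% of all genes) and 0 were apart (4.27% of all genes). On chromosome 13 these counts were 7 and 10 of 32, or 5 and 8 of 30 without H4c17 and H4c18. On chromosome 11 the summed TPM of 2 genes was 28.7, 25.9 and 24.1 in knockout and 17.1, 29.3 and 19.6 in control, with overlap in control library 2 and a ratio of 1.19. The 27 clustered histone genes below the threshold summed to 13.3, 13.4 and 19.5 TPM in knockout and to 10.8, 13.3 and 13.8 TPM in control, with overlap and a ratio of 1.22. H2bc18, named after its values were seen, was the one among them with every knockout library below every control library, at 0.35, 0.08 and 0.09 TPM in knockout and 0.37, 0.46 and 0.54 TPM in control. H3c7, also named after its values were seen, was the one with every knockout library above every control library, at 0.63, 0.58 and 0.97 TPM in knockout and 0.24, 0.35 and 0.22 TPM in control.

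Genes that act on histone messages, histone variants, chaperones and S phase genes were examined beside them, and 0 of them passed the test by limma with Benjamini-Hochberg adjustment. Of 16 tested factors for histone 3′ end formation and decay, 4 had higher and 12 lower values, 0 were past an unadjusted p of 0.05 in either direction, and the median was −0.12. That median was −0.0455 without control library 2, −0.0478 with median-of-ratios scaling and −0.0219 with quantile normalization, beside −0.0413, −0.0011 and 0.0009 over all genes. Slbp, chosen after its values were seen as the protein that binds the stem-loop, stood at 9.87, 10.3 and 11.9 TPM in knockout and at 10.96, 13.3 and 11.1 TPM in control. Its groups overlapped (difference −0.13, SE 0.12, limma adjusted p = 0.691).

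Lsm11, a subunit of the U7 particle, stood at 4.47, 5.31 and 4.48 TPM in knockout and at 7.69, 4.99 and 7.12 TPM in control, with overlap in control library 2. Eri1, an exonuclease that trims histone message ends, stood at 5.60, 6.23 and 5.68 TPM in knockout and at 6.34, 7.48 and 8.29 TPM in control. The Eri1 groups were apart and lower, with a difference of −0.29 (SE 0.13, limma adjusted p = 0.421). The scaffold Sympk overlapped between groups, at 143, 154 and 130 TPM in knockout and 123, 125 and 137 TPM in control.

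Variant histone genes had values in both directions: of 11 tested, 5 were higher and 6 lower, with a median of −0.03 that turned to 0.04 and 0.08 with median-of-ratios and quantile scaling. H3f3a, which encodes the replacement histone H3.3, averaged 570.2 ± 32.6 TPM in the knockout libraries and 512 ± 64.0 TPM in the controls (SD, n = 3), with overlap. H1f0, a linker histone of non-dividing cells, stood at 142 ± 13.6 TPM and 153 ± 17.96 TPM, with overlap. Cenpa, the centromeric H3 variant, stood at 0.89, 2.29 and 1.40 TPM in knockout and at 4.01, 2.94 and 3.12 TPM in control. The Cenpa groups were apart and lower, with a difference of −0.82 (SE 0.23, limma adjusted p = 0.269).

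Values of S phase and proliferation genes went the other way from those of the core histones. Of 19 tested, 1 had a higher and 18 a lower value (64.5% of all genes were lower), with a median of −0.28; 6 had higher values with quantile normalization (median −0.18) and 5 without knockout library 1 (median −0.23). By limma on the deposited scale, 4 were lower at an unadjusted p under 0.05, against 9.62% of all genes. In 7 of the 19 every knockout library was below every control library, against 15.3%. Their summed TPM was 182 to 218 in knockout and 222 to 264 in control. Their part in the histone levels was not tested.

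Ccna2, the cyclin of S phase and G2, stood at 0.82, 3.00 and 1.16 TPM in knockout and at 4.92, 3.23 and 3.596 TPM in control. Knockout library 2 was the highest knockout and control library 2 the lowest control, and the groups were apart (difference −0.96, SE 0.31, limma adjusted p = 0.324). Mcm4, a subunit of the replicative helicase, stood at 7.34, 7.47 and 6.58 TPM in knockout and at 8.67, 9.52 and 8.72 TPM in control, apart (difference −0.29, SE 0.10, limma adjusted p = 0.343). Mki67, a marker of cycling cells, averaged 0.66 ± 0.51 TPM in the knockout libraries and 1.71 ± 0.22 TPM in the controls (SD, n = 3), apart. Of 15 tested histone chaperones, 4 had higher and 11 lower values, with a median of −0.08, near the −0.07 of all genes; with median-of-ratios scaling 7 were higher and the median was −0.0048. Chaf1a, a subunit of the assembly factor CAF-1, stood at 2.53 ± 0.28 TPM and 3.36 ± 0.38 TPM (SD, n = 3), apart and lower.

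**Figure D5:**
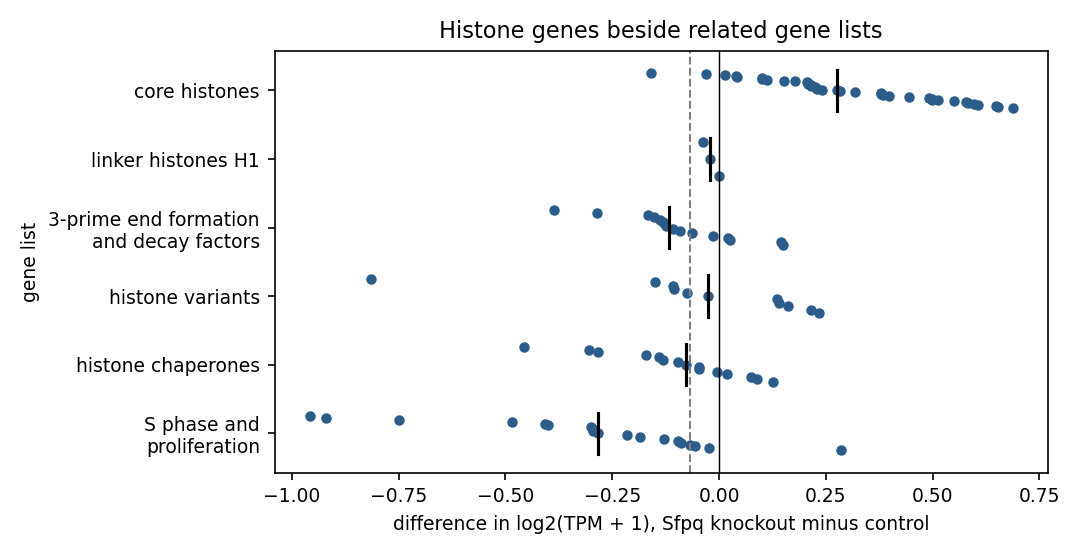
Difference in log2(TPM + 1), knockout minus control, of each tested gene (points) in 6 lists, with the list's median (black bar) and the median of all genes tested (dashed line, −0.07). The median is 0.28 for core histones, −0.02 for H1 and −0.28 for the S phase and proliferation genes.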

How the data were processed

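Polyadenylated RNA of 6 cultures went through the Ion Total RNA-Seq Kit and an Ion Proton, per the labels' protocols. The submitters' processing notes name STAR 2.4.1d and the genome mm10. Not given in the sources used here: counting tool, annotation release, use of strand and treatment of reads with several matches. The deposited values are TPM per RefSeq accession, which the authors scaled to 1000000 per library. TPM keeps no depth, so no count test or interval was used, and overlapping or antisense genes are uncertain.

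Of 34671 accessions, 30822 were named by a RefSeq table of GRCm38.p6 and 103 by GENCODE; 3746 had no name and kept their accession. Sums per symbol gave 34656 genes. Groups and replicate numbers come from the sample titles. The test was limma 3.58.1 (R 4.3.3) on log2(TPM + 1), for genes reaching 1 TPM in 3 or more libraries (intensity trend, no block, moderated 2-sided test, Benjamini-Hochberg at 0.05), after a check on simulated data. Sequences were read with Python 3.11.15 and pandas 2.3.3, and plots drawn with matplotlib 3.10.9. Sums, ratios and medians have no test.

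The histone genes and the related lists were chosen with earlier results of these data known. Named are the 3 genes with the highest mean TPM in each class, up to 6 in each direction with the smallest p, and from each related list up to 3 with the smallest p and 2 with the highest mean TPM; not all of the latter are described. Alternatives covered the pseudocount, the filter, scaling, the moderation, a replicate block, accessions in place of genes, each library left out and sequence shared between genes.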

Additional observations from a re-analysis of the deposited data

How the results depend on the processing

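The number of histone genes called was 0 in every alternative run. The depth behind TPM is unknown. The count of histone genes higher at an unadjusted p under 0.05 (12) ranged from 4 to 17 with 1 library left out. It was 9 of the 37 genes left after near copies were summed. Among the 22 genes with at most 50% shared sequence in GENCODE models it was 5, H3c14 among them, against 2.68% of all genes. With the replicate number as a block it was 5. With the block or a library left out, the share of all genes at that threshold was not worked out. Deviations of same-numbered libraries correlated at −0.26, −0.25 and 0.05, and those of differently numbered libraries at −0.265 to 0.412. The labels do not say whether the numbers pair the samples. Correlations over 3 libraries a group cannot decide it. The count of genes apart and higher (10) was 23 with median-of-ratios scaling, 24 with quantile normalization and 10 to 27 with 1 library left out. Over all genes these shares were 9.33%, 8.71% and 5.64% to 12.3%. At a mean TPM of at least 5 the count was 6 of 20, against 4.27% of all genes tested. Of lower genes, 1 of 69 was past an unadjusted p of 0.05 and 1 was apart with no filter on low values (H2bc18 in both, named after its values were seen); 0 to 1 were apart with a library left out, the 1 being H2ac10 without knockout library 3. The median difference (0.24) was 0.38 at a mean TPM of at least 5 and 0.19 to 0.35 with a library left out. The 3′ end factors' median (−0.12) was −0.0219 with quantile normalization and −0.149 to −0.0455 with a library left out, the chaperones' (−0.08) −0.115 to −0.0396 (the latter without control library 2), and the S phase genes' (−0.28) −0.325 to −0.199. The variants' median (−0.03) was 0.0543 at a mean TPM of at least 5, 0.0389 with median-of-ratios scaling, 0.0798 with quantile normalization and −0.0594 to 0.0781 with a library left out. Sfpq passed with a pseudocount of 5 (−1.39, limma adjusted p = 0.0431) and at a mean TPM of at least 5 (−1.57, limma adjusted p = 0.0445), where fewer genes were tested. Near-zero differences changed sign with median-of-ratios and quantile scaling, respectively: H1f2 to 0.0731 and 0.0214, H1f3 to 0.0234 and 0.0535, H1f4 to 0.0481 and 0.0835, H2bc21 to 0.0329 and 0.071, and Cdk2 to 0.0484 and 0.0348. With 1 library left out, H1f2 ranged from −0.14 to 0.171, H1f3 from −0.258 to 0.311, H1f4 from −0.17 to 0.174, H2bc21 from −0.23 to 0.112, Cdk2 from −0.134 to 0.101 and Upf1 from −0.0214 to 0.0848. On the log2 scale, class and cluster ratios moved by less than the spread between libraries under the alternatives run. That spread was wide. With 1 library left out, the H3 ratio (1.56) ranged from 1.37 to 2.01, the latter without control library 2. The chromosome 11 ratio (1.19) ranged from 1.07 to 1.43 and the H1 ratio (1.00) from 0.91 to 1.12. For moved counts and medians the cause was not tested.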
